A study of Homo sapiens with 8 samples.

Results

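Oxidative phosphorylation genes were compared among breast cancer stem cells (CSCs) that carried scramble, CDH2 or Cx43 shRNA. The genes were taken by symbol: every row whose name began with NDUFA, NDUFB, NDUFC, NDUFS, NDUFV, UQCR, ATP5 or COX4 to COX8, the exact names SDHA, SDHB, SDHC, SDHD and CYC1, and the mRNAs of the mitochondrial genome. These names matched 113 of 12939 genes, and 103 were kept after 7 pseudogenes, 2 readthrough genes and 1 antisense gene were dropped. Of the 103 members, 90 are nuclear and 13 mitochondrial. Complex I had 45 nuclear and 7 mitochondrial members, complex II 4 nuclear members, complex III 10 and 1, complex IV 12 and 3, and complex V 19 and 2. The prefixes also brought in 8 NDUFAF assembly factors of complex I. NDUFA4 was counted with complex IV, where its protein is found, despite its name. The members were chosen by name and not by their values.

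The cells were MDA-MB-231, a triple negative breast cancer line, stably transfected with GFP under the Oct4a regulatory region and with an RFP vector for the shRNA. All groups carried both vectors and puromycin selection, and the GFPhi/RFPhi cells were sorted and left overnight before total RNA was taken. The scramble and CDH2 groups had 3 libraries each and the Cx43 group had 2, after depletion of ribosomal RNA. According to the methods, the CDH2 knockdown is a selected clone, so the shRNA and the clone cannot be told apart. Cx43 is connexin 43, the gap junction protein, and CDH2 is N-cadherin. Neither targeted transcript was analysed here, so the knockdown was not checked in these libraries. The paper reports Western blots for both targets in the knockdown cells.

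Oxidative phosphorylation takes place at the inner mitochondrial membrane. Complexes I and II pass electrons from NADH and succinate to quinone, complex III passes them to cytochrome c and complex IV to oxygen, and the proton gradient so formed drives ATP synthesis by complex V. Complex II is wholly nuclear-encoded, whereas the others join nuclear subunits with subunits translated inside the mitochondrion. Each large complex has core subunits, which include the catalytic ones, and accessory subunits around them, many of which serve assembly and stability. In complex V, ATP5F1A to ATP5F1E and the c subunits were counted here as core, and ATP5PB and ATP5PO as accessory. Mitochondrial mRNAs are cut from long transcripts that cover nearly the whole circular genome.

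The values were log2(CPM + 1), where CPM is the count scaled to a fixed library total, and were already corrected by the authors for the sequencing run. A log2 fold change is the difference of 2 groups on that scale, and for genes near 0 it is smaller than the change in CPM. The files hold no counts, so the depth is unknown and the spread between libraries sets the precision. The labels do not say whether replicates were separate cultures, so p-values measure the spread between these samples. Scramble replicate 1 lay within 0.0678 of the scramble mean in every gene, with a median distance of 0.00361, whereas scramble replicates 2 and 3 lay up to 0.81 and 0.808 away. The scramble spread thus rests on replicates 2 and 3. All 5 markers of a mesenchymal breast cancer line had values, from 5.77 for ZEB1 to 9.81 for VIM. Of the luminal or epithelial markers, KRT18 lay between 8.14 and 8.78, KRT8 between 7.99 and 8.61, ERBB2 between 5.16 and 5.52 and EPCAM between 2.21 and 2.75. ESR1, PGR, GATA3 and CDH1 were not among the 12939 genes. Of the stromal markers, PDGFRB lay between 4.70 and 5.73 and COL1A1 between 2.50 and 4.33. COL1A2, COL3A1, LUM, DCN and THY1 were not among the 12939 genes. Of the blood cell markers, CD68 lay between 3.76 and 4.49, and PTPRC, CD14, HBB and CD3E were not among the 12939 genes. The part of other cell types in the results was not tested.

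The promoters of 73 of the 90 nuclear members were matched in the RefSeq table (GRCh38.p14), as 250 bases before and 50 bases after the gene start. They are shown because nuclear respiratory factors and ETS factors are known regulators of these genes. The letters TGCGCA, the inner part of the NRF1 motif and the same on both strands, stood in 21 of the 73 (28.8%), against 14.1% of 9546 genes of the files and 8.42% of all 27305 promoters of the table. The ETS letters CCGGAAG, searched on both strands, stood in 21 (28.8%), against 20.8% and 10.7%. The letters AAGATGG, part of the YY1 motif and searched on both strands, stood in 16 (21.9%), against 7.99% and 6.06%. Of the 17 nuclear members called lower in CDH2 knockdown further on, 13 had a promoter, of which 5 held the NRF1, 4 the ETS and 4 the YY1 letters. The lines that follow give ATP5ME, which had the largest fall in CDH2 knockdown and holds all 3 motifs, COX5B and NDUFS4, which also fell, and SDHA, which held 5 NRF1 matches and had a log2 fold change of -0.01. Capitals mark the matches on either strand.
ATP5ME (chr4:674227-674526, minus strand): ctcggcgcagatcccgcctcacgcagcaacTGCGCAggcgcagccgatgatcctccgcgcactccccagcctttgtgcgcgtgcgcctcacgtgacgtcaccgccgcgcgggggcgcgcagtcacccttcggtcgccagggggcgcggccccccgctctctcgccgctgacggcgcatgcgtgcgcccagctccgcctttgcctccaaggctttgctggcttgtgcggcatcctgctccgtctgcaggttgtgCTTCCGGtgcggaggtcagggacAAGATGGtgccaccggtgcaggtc
COX5B (chr2:97645812-97646111, plus strand): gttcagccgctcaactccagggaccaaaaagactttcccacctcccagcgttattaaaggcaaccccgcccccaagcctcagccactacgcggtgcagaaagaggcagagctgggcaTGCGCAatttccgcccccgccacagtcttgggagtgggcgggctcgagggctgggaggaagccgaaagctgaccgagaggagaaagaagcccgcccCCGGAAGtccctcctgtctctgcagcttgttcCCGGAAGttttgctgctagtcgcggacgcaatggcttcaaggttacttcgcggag
NDUFS4 (chr5:53560389-53560688, plus strand): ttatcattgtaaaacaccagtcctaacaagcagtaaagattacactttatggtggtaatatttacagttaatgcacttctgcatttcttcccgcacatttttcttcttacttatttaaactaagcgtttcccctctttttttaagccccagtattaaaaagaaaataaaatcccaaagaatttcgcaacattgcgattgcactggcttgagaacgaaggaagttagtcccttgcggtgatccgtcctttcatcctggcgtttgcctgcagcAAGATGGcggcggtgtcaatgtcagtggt
SDHA (chr5:218070-218369, plus strand): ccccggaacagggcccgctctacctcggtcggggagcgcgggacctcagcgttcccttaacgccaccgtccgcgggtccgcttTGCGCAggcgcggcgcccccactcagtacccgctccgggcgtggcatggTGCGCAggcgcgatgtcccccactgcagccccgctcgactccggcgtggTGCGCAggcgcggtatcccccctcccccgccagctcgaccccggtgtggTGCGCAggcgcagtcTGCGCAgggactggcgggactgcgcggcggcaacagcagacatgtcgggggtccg
A match is a description of these letters and not of a bound factor.

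In the mitochondrial genome, some genes share bases, and short reads inside the shared part cannot be given to a single gene. MT-ATP8 and MT-ATP6 share 46 bases (chrM:8527-8572 of hg38) and MT-ND4L and MT-ND4 share 7 (chrM:10760-10766). Both pairs lie on the plus strand and are shown with 20 bases on either side and the shared bases in capitals.
MT-ATP8 and MT-ATP6: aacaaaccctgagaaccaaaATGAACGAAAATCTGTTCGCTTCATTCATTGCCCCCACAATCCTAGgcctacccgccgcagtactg
MT-ND4L and MT-ND4: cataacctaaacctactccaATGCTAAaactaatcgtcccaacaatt
The start of the second gene of each pair thus lies inside the first, and their values are not independent. Mitochondrial mRNAs are counted by gene in this text, so the 13 are 13 genes and not 13 separate transcripts.

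The question was how the 3 shRNA groups compared by complex and by encoding genome. In CDH2 knockdown, nuclear members were lower and mitochondrial mRNAs higher than in scramble. The median log2 fold change was -0.33 over the 90 nuclear members, with 82 lower and 8 higher, against 0.01 over all genes, of which 49.0% were lower and 51.0% higher. With limma and an adjusted p under 0.05 (Benjamini-Hochberg over all genes), 17 nuclear members (18.9%) were lower, against 6.98% of all genes tested, and 1 was higher, against 7.29%. All 3 CDH2 libraries lay below all 3 scramble libraries in 52 nuclear members, against 24.8% of all genes, and above them in 4, against 27.1%. Of all genes, 1.2% were lower and 0.866% higher past the test with the fold change that the methods add, and 0 members were. Without the replicate number as a block, 51 nuclear members were lower and 2 higher past the test, against 20.8% and 22.5% of all genes.

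The size of the difference varied between libraries. The median of the nuclear members was 5.80, 5.93 and 5.70 on the log2(CPM + 1) scale in scramble replicates 1 to 3. It was 5.51, 5.41 and 5.63 in the CDH2 libraries and 5.94 and 5.92 in the Cx43 libraries. The 3 CDH2 libraries were the lowest, and the third came closest to scramble. Against the scramble library of the same number, the median difference was -0.32, -0.58 and -0.04. The median over all nuclear members was -0.22 without CDH2 replicate 2, -0.21 without scramble replicate 2 and -0.44 without replicate 3 of either group. The 17 falls and the rise passed the test with all 8 libraries. Without scramble replicate 1, 0 members passed, against 0.0773% of all genes. Without CDH2 replicate 1 or 2, or with only the scramble and CDH2 libraries, 0 members passed, against 0.0% of all genes. Leaving out either Cx43 replicate repeats that last fit for this comparison. Without scramble replicate 2, 8 members passed, against 12.1% of all genes. Without replicate 3 of either group 72 passed, against 41.0%. Leaving out replicate 3 of one group leaves that of the other alone in its block, so both are the same fit. The 52 without overlap stood at 52 when scramble replicate 1 was left out, and the count over all genes went from 3208 to 3210. That replicate lay close to the scramble mean, so leaving it out could hardly change these counts. In bulk RNA, fewer cells with these transcripts and less RNA per cell cannot be told apart.

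**Figure D1:**
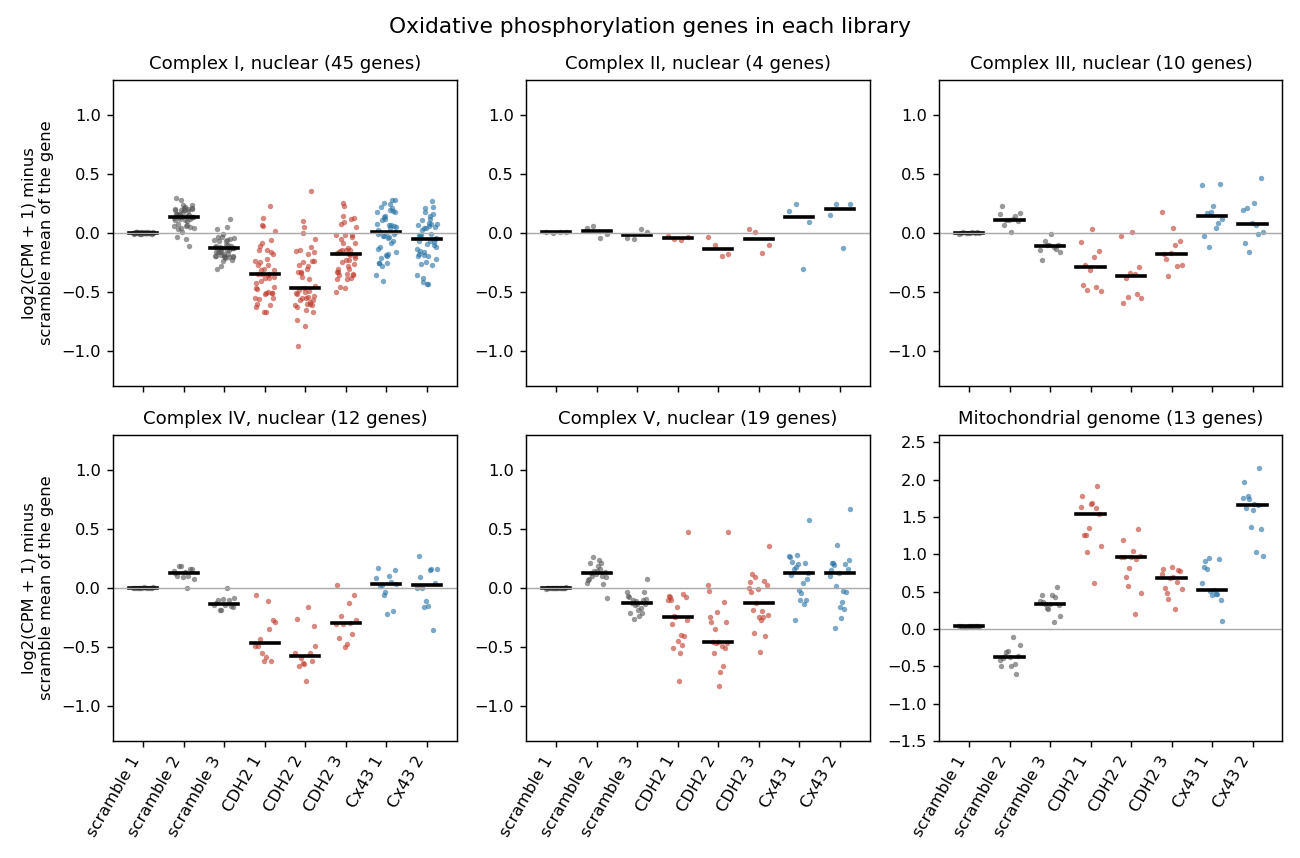
Each point is a gene in a library, as log2(CPM + 1) minus the scramble mean of that gene, by complex for the 90 nuclear members and together for the 13 mitochondrial mRNAs, and bars are medians. The medians of CDH2 replicates 1 and 2 lie lowest in complexes I, III, IV and V. The medians of the mitochondrial mRNAs lie above scramble in all 5 knockdown libraries.

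Complex I, which oxidizes NADH, had a median of -0.33 over 45 nuclear members in CDH2 knockdown, with 40 lower. Of these, 9 fell and 0 rose with an adjusted p under 0.05. The largest fall was that of NDUFB1, an accessory subunit of the membrane arm, with 5.17, 5.35 and 4.99 in scramble and 4.5, 4.38 and 4.70 in CDH2 knockdown. All CDH2 values were below all scramble values, with a log2 fold change of -0.65 (standard error, SE, 0.14, limma adjusted p = 0.0378). NDUFA1, a small membrane subunit needed for assembly, stood at 5.50, 5.56 and 5.44 in scramble, at 4.95, 4.89 and 5.00 in CDH2 and at 5.14 and 5.14 in Cx43 knockdown. Both knockdowns lay below scramble without overlap, and only in CDH2 knockdown did it pass the test, at -0.56 (SE 0.08, limma adjusted p = 0.0214) against -0.36 (adjusted p = 0.116). The difference between the knockdowns was -0.19 and had an unadjusted p of 0.0857 from limma.

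The other 7 falls of complex I were NDUFA8 and NDUFC2, each at -0.53, NDUFB3 at -0.51, NDUFS4 at -0.49, NDUFS5 at -0.47, NDUFA12 at -0.44 and NDUFA5 at -0.33. NDUFS4, which helps to join the NADH-oxidizing module and is mutated in Leigh syndrome, had 5.08, 5.21 and 4.95 in scramble and 4.57, 4.47 and 4.72 in CDH2 knockdown. All 9 are accessory subunits. NDUFA3 and NDUFA13, also accessory, had log2 fold changes of -0.63 (SE 0.22) and -0.59 (SE 0.15), wider errors, and adjusted p-values of 0.0984 and 0.0524 from limma. NDUFA3 stood at 4.04, 4.33 and 3.73 in scramble and 3.43, 3.07 and 3.70 in CDH2 knockdown, so that the values of replicate 3 nearly met.

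NDUFS1, a core subunit of complex I that carries iron-sulphur clusters, had the highest fold change among the nuclear members of the complex. Its values were 6.84, 6.73 and 6.96 in scramble, 7.07, 7.20 and 6.96 in CDH2 and 7.12 and 7.11 in Cx43 knockdown. NDUFS1 was at 0.23 (limma adjusted p = 0.158) and 0.27 (adjusted p = 0.265). Of the 8 NDUFAF assembly factors, 0 passed the test in CDH2 knockdown, with a median of -0.15 and a range from -0.40 for NDUFAF2 to 0.11 for NDUFAF5. NDUFAF2, a chaperone of late assembly, was lower in both knockdowns, with 4.84, 4.99 and 4.68 in scramble, 4.43, 4.28 and 4.59 in CDH2 and 4.43 and 4.42 in Cx43 knockdown.

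**Figure D2:**
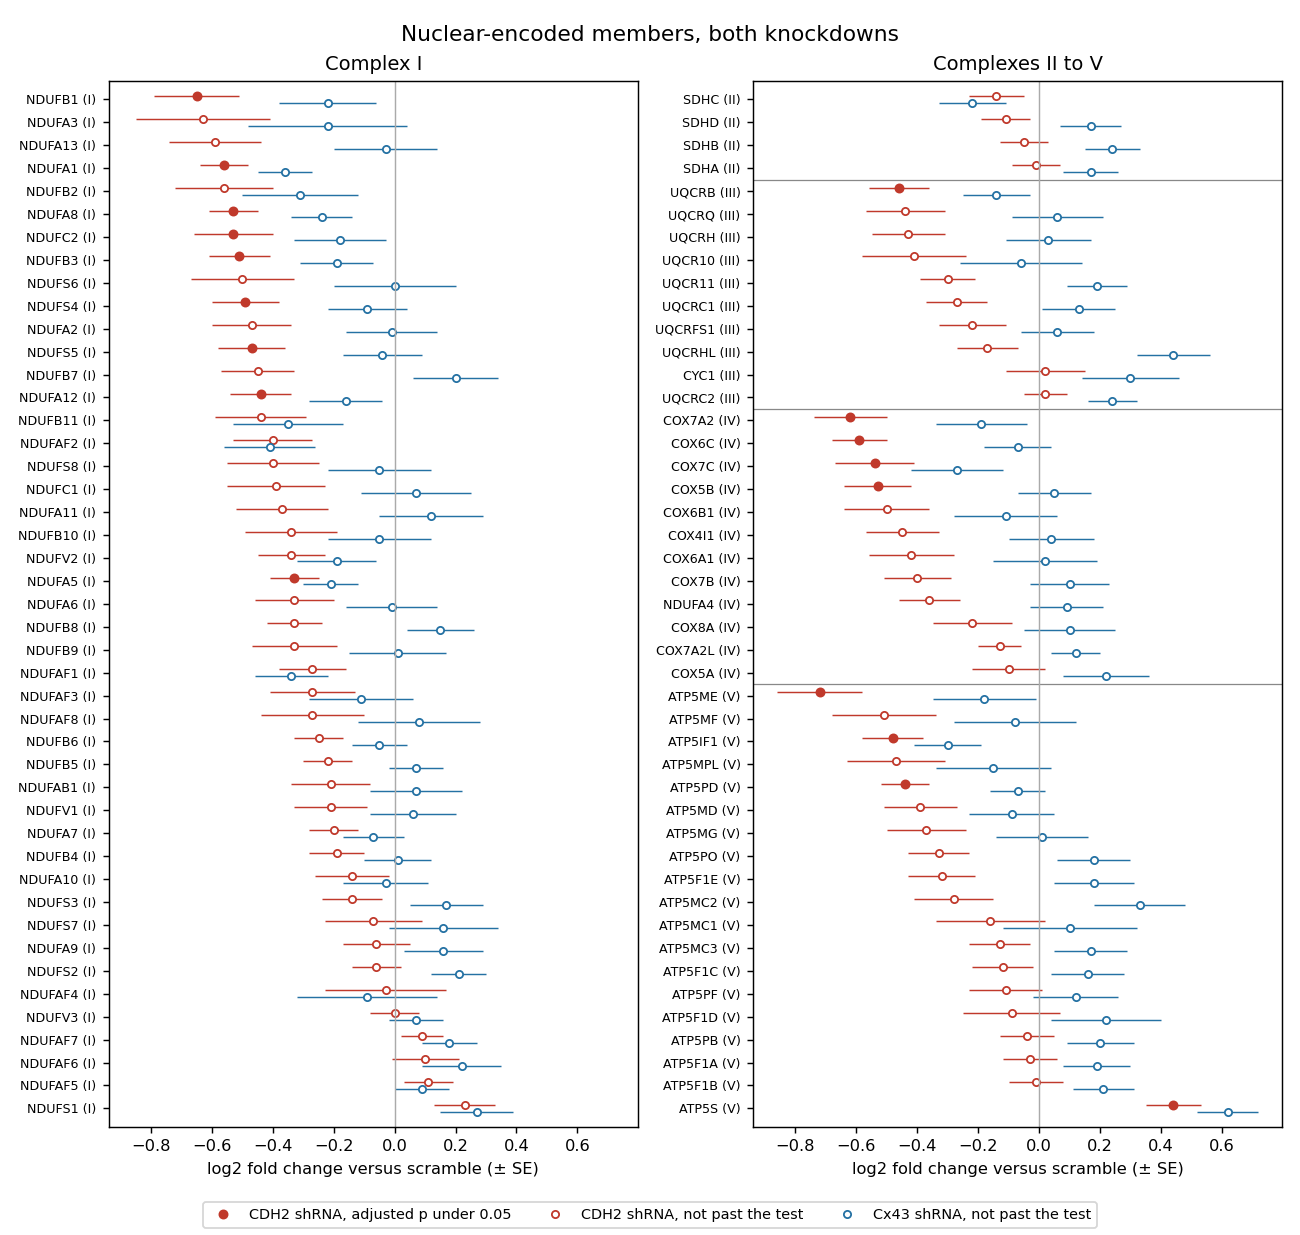
Log2 fold changes of the 90 nuclear members against scramble with their standard errors, complex I on the left and complexes II to V on the right, in order of the CDH2 knockdown values, with filled points for an adjusted p under 0.05. The 18 filled points are all from CDH2 knockdown, 17 to the left of 0 and ATP5S to the right.

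Complex II, succinate dehydrogenase, is the only complex whose 4 members are all core subunits and all nuclear. Its median was -0.08 in CDH2 knockdown, with all 4 lower and 0 past the test. SDHA, the flavoprotein, stood at 6.65, 6.69 and 6.6 in scramble, 6.62, 6.61 and 6.68 in CDH2 and 6.83 and 6.80 in Cx43 knockdown. The CDH2 values overlapped scramble, at -0.01, and the Cx43 values lay above it, at 0.17 (limma adjusted p = 0.325). SDHB, the iron-sulphur subunit, was at -0.05 and 0.24, and SDHD, a membrane anchor, at -0.11 and 0.17 in CDH2 and Cx43 knockdown. SDHC, the other anchor, was at -0.14 and -0.22, so it was the only member of the complex that was lower in Cx43 than in scramble cells.

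Complex III, the cytochrome bc1 complex, had a median of -0.29 over 10 nuclear members in CDH2 knockdown, with 8 lower and 1 past the test. That gene was UQCRB, which lies near the quinone site, with 6.87, 6.98 and 6.77 in scramble and 6.39, 6.33 and 6.51 in CDH2 knockdown. The groups did not overlap, with a log2 fold change of -0.46 (SE 0.10, limma adjusted p = 0.0374). UQCRQ and UQCRH, the hinge protein at cytochrome c1, were at -0.44 and -0.43 (limma adjusted p = 0.0713 and 0.0606). The catalytic CYC1, cytochrome c1, had 7.61, 7.78 and 7.47 in scramble, 7.54, 7.59 and 7.80 in CDH2 and 8.03 and 7.81 in Cx43 knockdown. It thus overlapped scramble in CDH2 knockdown, at 0.02, and lay above it in Cx43 knockdown, at 0.30 (limma adjusted p = 0.319). UQCRC2, a scaffold of the matrix side, was at 0.02 and 0.24.

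UQCRHL is an intronless copy of UQCRH, and reads of either can be counted to the other. UQCRHL was at -0.17 in CDH2 and 0.44 in Cx43 knockdown (limma adjusted p = 0.258 and 0.124). The sum of both stood at 6.41, 6.53 and 6.28 in scramble, 6.05, 5.96 and 6.19 in CDH2 and 6.61 and 6.58 in Cx43 knockdown. Summed, the CDH2 libraries were the lowest and the Cx43 libraries the highest, with differences from scramble of -0.34 and 0.19.

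Complex IV, cytochrome c oxidase, had the lowest median of the 5 complexes in CDH2 knockdown, -0.44 over 12 nuclear members, all of them lower. The nuclear subunits surround the catalytic core, which is mitochondrial. Of the 12, 4 fell past the test and 10 lay below scramble without overlap. COX7A2, also a contact in supercomplexes, had 6.71, 6.84 and 6.56 in scramble, 6.12, 5.91 and 6.23 in CDH2 and 6.48 and 6.55 in Cx43 knockdown. COX7A2 differed from scramble by -0.62 (SE 0.12, limma adjusted p = 0.0354) in CDH2 knockdown and -0.19 (adjusted p = 0.504) in Cx43 knockdown.

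COX6C had 6.14, 6.24 and 6.05 in scramble, 5.52, 5.50 and 5.64 in CDH2 and 6.11 and 6.03 in Cx43 knockdown. Only the CDH2 libraries stood apart, at -0.59 (SE 0.09, limma adjusted p = 0.0236) against -0.07 in Cx43 knockdown, and the difference between the knockdowns was -0.52 with an unadjusted p of 0.0033. COX7C and COX5B, the latter a zinc-binding subunit on the matrix side, fell by 0.54 and 0.53 (limma adjusted p = 0.0452 and 0.0349). The reads of COX7C could be shared with its pseudogene COX7CP1, and the sum of both was lower by as much, at -0.56. The smallest differences were those of COX5A, at -0.10, and of COX7A2L, a paralog of COX7A2 that joins complexes III and IV, at -0.13. The names COX4I2, COX6A2, COX7A1 and NDUFA4L2, forms known from muscle, lung or hypoxic cells, were not among the 12939 genes.

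Complex V, the ATP synthase, had a median of -0.28 over 19 nuclear members in CDH2 knockdown, with 18 lower, 3 falls and 1 rise past the test. The largest fall of all members was that of ATP5ME, subunit e, which helps to hold the enzyme in dimers. It stood at 4.27, 4.46 and 4.09 in scramble, 3.48, 3.44 and 3.73 in CDH2 and 4.17 and 4.02 in Cx43 knockdown. The CDH2 libraries lay below all others, at -0.72 (SE 0.14, limma adjusted p = 0.0339), and the Cx43 libraries at -0.18 (adjusted p = 0.577). ATP5PD, a subunit of the stator stalk, fell by 0.44 (limma adjusted p = 0.029). ATP5IF1, the inhibitor that stops the enzyme from consuming ATP, had 5.18, 5.28 and 5.08 in scramble, 4.67, 4.63 and 4.8 in CDH2 and 4.91 and 4.84 in Cx43 knockdown. It was lower in both without overlap, at -0.48 (limma adjusted p = 0.0349) and -0.30 (adjusted p = 0.201).

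In CDH2 knockdown, ATP5F1A to ATP5F1D of complex V overlapped scramble. ATP5F1E lay below scramble without overlap, at -0.32 (limma adjusted p = 0.102). ATP5F1B, the beta subunit, had 8.53, 8.60 and 8.46 in scramble, 8.46, 8.50 and 8.58 in CDH2 and 8.79 and 8.68 in Cx43 knockdown. It was at -0.01 in CDH2 knockdown and the alpha subunit ATP5F1A at -0.03. ATP5MC1, ATP5MC2 and ATP5MC3 encode the same mature c subunit of the proton-driven ring, and were at -0.16, -0.28 and -0.13 in CDH2 and 0.10, 0.33 and 0.17 in Cx43 knockdown. ATP5S, also named DMAC2L and counted here with assembly factors, was the only member that rose past the test. It had 4.09, 4.0 and 4.16 in scramble, 4.56, 4.56 and 4.44 in CDH2 and 4.66 and 4.75 in Cx43 knockdown. All 5 knockdown libraries lay above scramble, at 0.44 (SE 0.09, limma adjusted p = 0.0356) and 0.62 (SE 0.10, adjusted p = 0.0585).

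Core and accessory subunits differed in how far they moved in CDH2 knockdown. The 57 accessory subunits had a median of -0.42, with 16 falls past the test (28.1%, against 6.98% of all genes) and 43 below scramble without overlap (75.4%, against 24.8%). The 21 core subunits had a median of -0.12, with 0 past the test and 5 below scramble without overlap (23.8%), close to the share of all genes. Against the scramble mean, the median of the accessory subunits was -0.44, -0.54 and -0.27 in the 3 CDH2 libraries, and that of the core subunits -0.11, -0.21 and -0.01. In Cx43 knockdown the medians were -0.01 for accessory and 0.17 for core subunits. These medians are descriptions and the difference of the classes was not tested.

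Transcript length moved with this result. The canonical transcripts (GENCODE v44) of accessory subunits had a median length of 675 bases, those of core subunits 1308 and those of all matched genes 3230. In CDH2 knockdown, all 1067 genes under 1000 bases had a median of -0.26, and 16.0% of them fell past the test. The 51 nuclear members under 1000 bases had a median of -0.43, all 51 lower and 27.5% past the test, and the 39 longer members a median of -0.13. Short genes also differed between libraries within a group: their median distance from the gene means was 0.10, 0.24 and -0.03 in scramble, -0.19, -0.27 and -0.03 in CDH2 and 0.11 and 0.06 in Cx43 knockdown. CDH2 replicates 1 and 2 were thus the lowest for short genes as for the nuclear members, and CDH2 and scramble replicate 3 lay side by side. After a correction of each library for length and GC content, the median of the nuclear members was -0.18, that of accessory subunits -0.24, that of core subunits 0.00 and that of all genes under 1000 bases -0.02. With the coding length in place of the transcript length, an alternative chosen after seeing the data, the median of the nuclear members was -0.11. The corrected fits called 20 and 13 of the 103 members, 19 and 11 of them lower. Over all genes they called 13.7% and 11.9% in either direction, against 14.3% without correction. The canonical transcript can be far longer than the expressed form, as for UQCRB at 8459 bases.

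**Figure D3:**
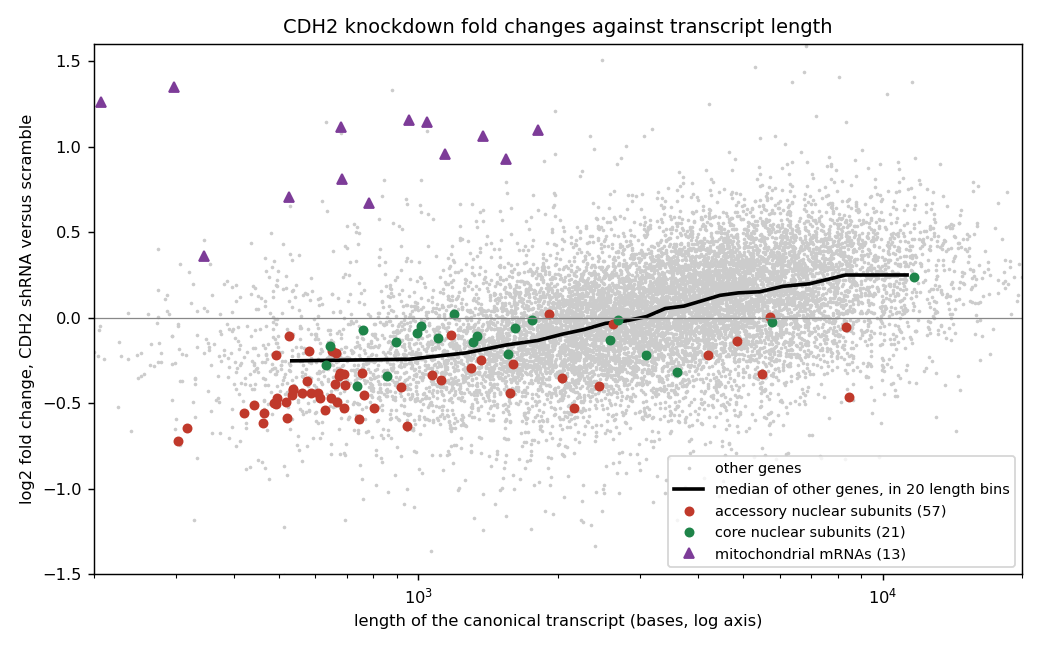
Log2 fold change of CDH2 knockdown against the length of the canonical transcript on a log axis, with other genes in grey, their median in 20 length bins as a line, core and accessory nuclear subunits in green and red and mitochondrial mRNAs as purple triangles. Short genes lie below 0 as a class, most accessory subunits lie below the line, and the mitochondrial mRNAs, which are also short, lie above 0.

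The mRNAs of the mitochondrial genome lay on the other side of scramble. In CDH2 knockdown all 13 were higher than in scramble, with a median log2 fold change of 1.06, and all 13 lay above scramble without overlap, against 27.1% of all genes. In Cx43 knockdown all 13 were higher, with a median of 1.10, and 12 lay above scramble without overlap, against 31.4% of all genes. MT-ND6, the only one encoded on the opposite strand, was the exception. By limma, 0 of the 13 passed an adjusted p of 0.05 in either comparison and 8 had an unadjusted p under 0.05 in each, against 19.5% and 12.2% of all genes in that direction. The lowest adjusted p was 0.0788 for MT-ND5 in CDH2 and 0.113 for MT-CO3 in Cx43 knockdown. The mRNAs of a strand share precursor transcripts, so the 13 are not independent of each other.

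Of complex I, MT-ND5 stood at 8.46, 8.07 and 8.75 in scramble, 9.96, 9.41 and 9.20 in CDH2 and 8.82 and 9.76 in Cx43 knockdown. The differences of MT-ND5 were 1.10 (SE 0.34) and 0.86 (SE 0.40). MT-ND4L had the largest difference in both, 1.35 and 1.55, with 6.21, 5.57 and 6.73 in scramble, 8.09, 7.51 and 6.96 in CDH2 and 7.11 and 8.33 in Cx43 knockdown. MT-ND1, MT-ND2 and MT-ND4 were higher by 1.16, 1.14 and 1.06 in CDH2 and by 1.02, 1.10 and 1.07 in Cx43 knockdown. MT-ND3 had the smallest in CDH2 knockdown, with 7.56, 7.43 and 7.63 in scramble and 8.16, 7.74 and 7.81 in CDH2 libraries, or 0.36 (SE 0.19). MT-ND6 had the smallest in Cx43 knockdown, with 6.57, 6.33 and 6.72 in scramble and 6.65 and 7.52 in Cx43 libraries, or 0.54 (SE 0.34).

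MT-CYB, the catalytic cytochrome b of complex III, was higher by 0.96 and 0.94. Of complex IV, MT-CO1, the subunit where oxygen is reduced, had the highest level per length, 1130 CPM per kilobase in scramble, against 283 for COX4I1, the highest nuclear member. MT-CO1 stood at 10.76, 10.35 and 11.10 in scramble, 11.99, 11.70 and 11.29 in CDH2 and 11.65 and 12.36 in Cx43 knockdown. It was higher by 0.92 and 1.27, MT-CO2 by 0.81 and 1.29, and MT-CO3 by 0.67 and 1.35. Of complex V, MT-ATP6 was higher by 1.11 and 1.19 and MT-ATP8 by 1.26 and 1.40.

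The size of this difference also varied between libraries. Against the scramble library of the same number, the median of the 13 was higher by 1.5, 1.34 and 0.25 in CDH2 and by 0.48 and 2.05 in Cx43 knockdown. In CDH2 knockdown the median was 0.66 without CDH2 replicate 1 and 0.72 without scramble replicate 2. For the Cx43 libraries it was 0.34 without Cx43 replicate 2, 1.94 without Cx43 replicate 1 and 0.66 without scramble replicate 2. Direction held in each of these. The library protocol depletes ribosomal RNA, and the mitochondrial ribosomal RNAs overlapped scramble in both knockdowns. MT-RNR1 was at 3.85, 3.58 and 4.11 in scramble, 3.87, 3.95 and 3.52 in CDH2 and 3.59 and 3.78 in Cx43 knockdown, with differences of -0.07 and -0.16. MT-RNR2 was at 5.25, 4.85 and 5.60 in scramble, 5.84, 5.64 and 5.19 in CDH2 and 5.46 and 6.07 in Cx43 knockdown, with differences of 0.32 and 0.53.

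**Figure D4:**
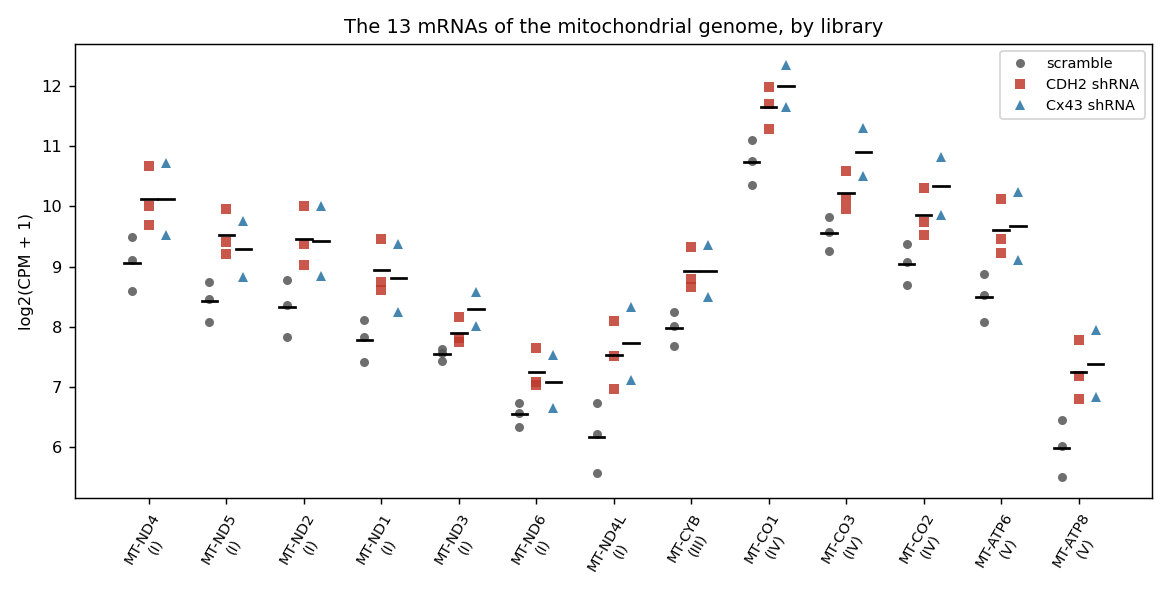
Level of the 13 mitochondrial mRNAs as log2(CPM + 1) in each library, with the complex in brackets and group means as black lines. Every CDH2 square lies above the scramble points of its gene, and both Cx43 triangles do so in all genes but MT-ND6, while the libraries of a group lie up to more than 1 unit apart.

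The make-up of the mitochondrial mRNAs also differed. The 7 complex I mRNAs held 32.6%, 32.2% and 32.8% of their summed CPM in scramble, 36.6%, 33.5% and 34.4% in CDH2 and 27.0% and 30.4% in Cx43 knockdown. The 3 complex IV mRNAs held 54.9%, 55.5% and 54.8% in scramble, 49.2%, 53.5% and 52.0% in CDH2 and 61.8% and 57.0% in Cx43 knockdown. Thus the share of complex IV mRNAs was lower than in scramble in all CDH2 libraries and higher in both Cx43 libraries, and that of complex I the reverse, with no overlap among the 3 groups. An exact test of 3 against 3 libraries cannot go below p = 0.1, so none was made.

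The nuclear and mitochondrial members together show the balance between the genomes. The 90 nuclear members held 0.872%, 0.931% and 0.81% of the summed CPM in scramble, 0.719%, 0.676% and 0.779% in CDH2 and 0.884% and 0.867% in Cx43 knockdown. The CDH2 libraries had the lowest shares, without overlap. The ratio of mitochondrial to nuclear CPM was 0.919, 0.639 and 1.24 in scramble, 2.83, 2.08 and 1.49 in CDH2 and 1.41 and 2.72 in Cx43 knockdown. All 5 knockdown libraries were above scramble, and the groups of knockdown libraries overlapped. CPM are shares of 1 total. Leaving the 13 mRNAs out of that total gave a median of -0.32 for the nuclear members in CDH2 knockdown, close to -0.33. The 13 held only 0.594% to 2.36% of the summed CPM, so leaving them out could change little. Other shifts within the total were not tested.

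**Figure D5:**
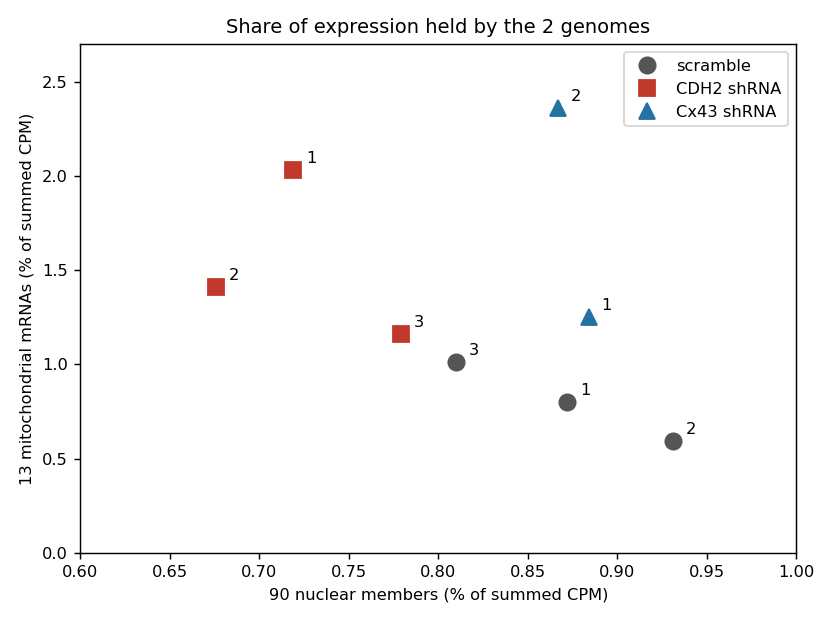
Share of summed CPM held by the 13 mitochondrial mRNAs against that of the 90 nuclear members, for 8 libraries marked by replicate number. The CDH2 libraries lie to the left of all others, at 0.676% to 0.779% on the nuclear axis, and both knockdowns lie above scramble on the mitochondrial axis.

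In Cx43 knockdown the nuclear members lay near scramble. Their median was 0.05, with 39 lower and 51 higher, against 0.04 over all genes, of which 42.4% were lower and 57.6% higher. By limma, 0 of the 103 members passed an adjusted p of 0.05, against 0.788% of all genes lower and 0.417% higher, and among nuclear members 4 were lower and 4 higher with an unadjusted p under 0.05, against 9.41% and 12.2%. Without the block, 6 members were lower and 11 higher past the test, against 10.3% and 14.0% of all genes. The medians were -0.03 for complex I, 0.17 for complex II, 0.10 for complex III, 0.05 for complex IV and 0.16 for complex V. Without overlap, 16 nuclear members lay below scramble, against 21.4% of all genes, and 27 above it, against 31.4%. The counts were 34 lower without scramble replicate 3, against 28.6% of all genes in that setting, and 45 higher without scramble replicate 2, against 39.3%. Those with the largest differences were ATP5S, at 0.62, UQCRHL, at 0.44, and NDUFAF2, at -0.41, as described above. Among the rest, COX7C was lower, at -0.27, and COX5A higher, at 0.22 (limma adjusted p = 0.343 and 0.4).

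Both comparisons use the same scramble libraries, so the knockdowns were also compared with each other. By limma, 0 genes of the whole table passed an adjusted p of 0.05 (0.0%), while 1472 were lower and 1119 higher (8.65%) with an unadjusted p under 0.05. The median of the nuclear members was -0.30, lower in CDH2 knockdown, with 85 of 90 lower, against 54.8% of all genes. All CDH2 libraries lay below both Cx43 libraries in 76 nuclear members, against 29.1% of all genes, and above them in 0, against 21.8%. Of the nuclear members, 37 had an unadjusted p under 0.05 for being lower, against 11.4%, and 0 for being higher. Without the block, 36 were lower past the test, against 12.3% of all genes, and 0 higher, against 9.2%. The medians were -0.28, -0.23, -0.38, -0.43 and -0.30 for complexes I to V, and after the length and GC correction the median of all nuclear members was -0.18. NDUFB7, an accessory subunit of complex I chosen after its values were seen, had the largest difference, -0.65, with 5.16, 5.12 and 5.36 in CDH2 and 5.91 and 5.81 in Cx43 knockdown. The mitochondrial mRNAs overlapped between the knockdowns in all 13 genes, with a median of -0.08 that ran from -0.87 without Cx43 replicate 1 to 0.71 without Cx43 replicate 2.

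The ribosomal protein families had medians below 0 in CDH2 knockdown, but smaller shares of calls than all genes. The 78 genes of the mitochondrial ribosome (MRPL and MRPS) had a median of -0.19 in CDH2 and 0.05 in Cx43 knockdown, with 61 and 31 lower and 2 falls past the test in CDH2 knockdown. The 82 genes of the cytosolic ribosome (RPL and RPS) had medians of -0.27 and 0.12, with 81 and 15 lower and 3 falls past the test. After the length and GC correction the medians in CDH2 knockdown were -0.02 and -0.09. The share past the test was thus higher among the 90 nuclear members than in either family, at 18.9% against 2.56% and 3.66%. It was 6.98% over all genes, and this is a description with no test. Between the knockdowns, the RPL and RPS genes had a median of -0.38, and 75 of 82 were lower in CDH2 without overlap (91.5%). The nuclear members had -0.30 and 84.4%, and the MRPL and MRPS genes -0.17 and 43.6%. After the length and GC correction these medians were -0.24, -0.18 and -0.06. The lower level in CDH2 than in Cx43 knockdown was thus not particular to the members.

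Other genes of the pathway were taken from lists chosen with earlier results known. Of 44 further assembly factors, 3 fell (6.82%, close to the 6.98% of all genes) and 0 rose in CDH2 knockdown, with a median of -0.11. The falls were COX17, a copper chaperone of complex IV, at -0.65 (limma adjusted p = 0.0339), FMC1 of complex V at -0.54 and SURF1 of complex IV at -0.52. COX17 had 4.07, 4.24 and 3.91 in scramble, 3.38, 3.32 and 3.59 in CDH2 and 3.90 and 3.80 in Cx43 knockdown. COX14 was at -0.56 (limma adjusted p = 0.0629). In Cx43 knockdown COA1 and COX18 were at 0.44 and 0.32, with 0 of the list past the test.

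Of 29 genes for mitochondrial transcription and RNA processing, 4 rose (13.8%, against 7.29% of all genes) and 0 fell in CDH2 knockdown, with a median of 0.10. LRPPRC, which stabilizes mitochondrial mRNAs, had 6.97, 6.92 and 7.04 in scramble, 7.50, 7.63 and 7.48 in CDH2 and 7.54 and 7.46 in Cx43 knockdown. All 5 knockdown libraries were above scramble, at 0.56 (limma adjusted p = 0.0228) and 0.53 (adjusted p = 0.0751). The other rises were FASTKD3 at 0.52, TFAM, which packs and transcribes mitochondrial DNA, at 0.36, and PNPT1 at 0.34. TBRG4 was at 0.08 and 0.44. After the length and GC correction the median of the list was 0.05.

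Of 14 genes for mitochondrial DNA replication, DNA2, a nuclease also used in the nucleus, rose by 0.72 in both knockdowns (limma adjusted p = 0.0166 and 0.0364) and DGUOK, which salvages purine nucleotides, fell by 0.42 in CDH2 knockdown. That is 7.14% of the list in each direction in CDH2 knockdown, close to the 6.98% and 7.29% of all genes. RNASEH1 was at 0.34 in Cx43 knockdown. Of 11 transcriptional regulators of nuclear subunits, PPARGC1B, a coactivator of mitochondrial genes, was the 1 that rose in CDH2 knockdown (9.09%, against 7.29% of all genes). It had 3.10, 3.11 and 3.10 in scramble, 3.71, 3.85 and 3.78 in CDH2 and 3.55 and 3.39 in Cx43 knockdown, or 0.68 (limma adjusted p = 0.0199) and 0.37 (adjusted p = 0.129). PPRC1 was at 0.52 in CDH2 and MYC at 0.60 in Cx43 knockdown (limma adjusted p = 0.0625 and 0.0539).

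Of 18 genes of the citrate cycle and pyruvate dehydrogenase, 2 fell (11.1%, against 6.98% of all genes) and 1 rose (5.56%, against 7.29%) in CDH2 knockdown, with a median of 0.00. IDH2, the mitochondrial NADP-dependent isocitrate dehydrogenase, stood at 4.65, 4.6 and 4.69 in scramble, 4.13, 4.08 and 4.04 in CDH2 and 4.44 and 4.54 in Cx43 knockdown. It fell by 0.56 (limma adjusted p = 0.0211) in CDH2 knockdown, PDHB fell by 0.30, and CS, citrate synthase, rose by 0.35. IDH3B was at -0.40 in CDH2 knockdown, and IDH3A and SUCLA2 were at 0.31 and 0.32 in Cx43 knockdown, with 0 of the list past the test there. Of 14 genes for mobile carriers and quinone synthesis, 0 passed the test in either knockdown, with medians of -0.05 and 0.13. COQ4 and PDSS1 were at -0.36 and 0.31 in CDH2, and COQ7 and COQ10A at 0.37 and 0.30 in Cx43 knockdown. The calls of all these lists rest on the same 8 libraries as those of the members.

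Readthrough genes were dropped as members, but their counts can draw reads from them. ATP5MF-PTCD1, which spans ATP5MF, had 2.11, 1.59 and 2.64 in scramble, 3.66, 4.10 and 3.09 in CDH2 and 3.17 and 3.25 in Cx43 knockdown, all 5 above scramble. ATP5MF itself was at -0.51 in CDH2 knockdown (limma adjusted p = 0.0918), and the sum of both at -0.31. NDUFC2-KCTD14 rose by 0.65 in CDH2 knockdown while NDUFC2 fell, and the sum of both was at -0.43. For the 7 members with a listed pseudogene, the difference of the summed values in CDH2 knockdown ran from -0.56 for COX7C to -0.04 for ATP5PB.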

How the data were processed

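RNA-seq libraries of 3 scramble, 3 CDH2 shRNA and 2 Cx43 shRNA samples were used, grouped by their labels. Per the methods and the submitters' processing notes, the authors aligned reads to hg38 with STAR (2.6.1), quantified genes by expectation-maximization in Partek Flow, removed a sample of low quality, corrected replicates for the run effect (log normal model, shrinkage), and filtered low genes. The deposited values are log2(CPM + 1), with no counts, so the depth is unknown. Here 1 row without a gene name was left out, and 12939 genes entered limma (3.58.1, R 4.3.3), two-sided, in 1 model of 8 libraries with the replicate number as a block, with 3 residual and 2.84 prior degrees of freedom. Only 2 of the 3 residual directions held variance, since scramble replicate 1 was close to the mean of its group. Adjusted p-values are Benjamini-Hochberg values over all genes, and a call needs one under 0.05. The fit was also run on simulated data, in which scramble replicate 1 was not held near the mean of its group. That run thus cannot show how this closeness affects the p-values.

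The replicate numbers come from the labels. Distances to the group mean, added up over same-numbered libraries, came to at most 1e-04, so the correction was made on these numbers, and the block returns the degrees of freedom it used. Correlations of same-numbered deviations, from -1 to 0.951, are set by that sum.

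Canonical transcripts of GENCODE v44 gave length and GC content for 12248 genes (94.7%), and the promoters came from RefSeq (GRCh38.p14). Tables and plots were made with Python 3.11.15, pandas 2.3.3 and matplotlib 3.10.9. Genes were named by rule: the mitochondrial mRNAs, SDHA to SDHD, CYC1, the c subunits, ATP5IF1, paralogs with their main form, in each complex the 3 lowest and the highest in CDH2 knockdown and the 2 with the largest change in Cx43 knockdown, and 2 per list and knockdown. Other members and list genes past the test, and NDUFB7, COX5B and ATP5F1A to ATP5F1E, were named after their values were seen. The members, lists and tests were chosen with earlier results of these data known. Alternatives were other scalings, filters, pseudocounts, designs, left-out replicates and corrections for length.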

Additional observations from a re-analysis of the deposited data

Results flagged for a closer look

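The medians of the 4 complex II genes lay on opposite sides of scramble in the 2 knockdowns. Against the scramble library of the same number, the median was -0.05, -0.16 and -0.02 in the 3 CDH2 libraries and 0.14 and 0.15 in the 2 Cx43 libraries. The median difference between the knockdowns was -0.23. This was the smallest of the 5 complexes, against -0.28, -0.38, -0.43 and -0.30 for complexes I, III, IV and V. Complexes III, IV and V also had median fold changes of opposite sign in the 2 knockdowns, but not in every library, and complex I did not. The opposite signs in all 5 libraries singled complex II out, and the difference of the medians was not tested. The opposite signs were lost after the length and GC correction, where the median log2 fold change against scramble was 0.01 in CDH2 and 0.15 in Cx43 knockdown. Both knockdowns use the same scramble libraries.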

How the results depend on the processing

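With CDH2 shRNA against scramble, the count of members past the test was 18. It was 61 with no replicate block and 0 in a fit of only the groups compared. With the fold change of the methods it was 0, and at an unadjusted p under 0.05 it was 58. Leaving out a scramble or CDH2 replicate gave 0 to 72, against 0.0% to 41.0% of all genes. Without replicate 3 of CDH2 or of scramble, the other is left alone in its block, so both are the same fit, with the count of 72. Leaving out either Cx43 replicate repeats the fit of only the groups compared. Of all genes, 14.3% were called with all libraries, 43.3% with no replicate block, 0.0% with only the groups compared and 41.0% without replicate 3. At an unadjusted p under 0.05 by limma, 18.0% of all genes were lower and 19.5% higher. With Cx43 shRNA against scramble the count was 0, against 1.21% of all genes. It was 17 with no replicate block and 23 with only the groups compared, where 24.3% and 21.7% of all genes were called. With the length and GC correction it was 3 and with the coding length 2, where 4.44% and 3.94% were called. Unadjusted it was 16, against 9.41% of all genes lower and 12.2% higher. With a scramble or CDH2 replicate left out it was 0 to 19, against 0.0% to 16.5% of all genes. Between the knockdowns it was 0, as over all genes. It was 36 with no replicate block and 17 with only the groups compared, where 21.5% and 4.32% of all genes were called. Unadjusted it was 37, against 11.4% of all genes lower and 8.65% higher. With a scramble or CDH2 replicate left out it was 0 to 45, against 0.0% to 16.5% of all genes. The median of the nuclear members between the knockdowns, -0.30, was -0.18 with either length correction, -0.37 with only the groups compared, and -0.37 to -0.21 with a replicate left out. The cause of these changes was not tested. No value reported as a call changed its direction under the alternatives run. The median of complex II in CDH2 knockdown, which had no test, was -0.08 and became 0.01 with the length and GC correction. The median of the nuclear members in Cx43 knockdown ran from -0.03 to 0.17 with a replicate left out and was -0.01 after quantile normalization. The correction with the coding length was chosen after seeing the data.

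The number of libraries, the run correction before deposit and the near equality of scramble replicate 1 with the scramble mean limit every p-value here. The fit treats scramble replicate 1 as a full replicate, and only 2 of its 3 residual degrees of freedom hold variance, so its p-values count 1 that holds almost none. Without it 10 genes of the whole table passed in CDH2 knockdown and 0 members did, the lowest adjusted p of a member by limma being 0.168, while the medians were -0.32 for nuclear and 1.10 for mitochondrial members. Depth is unknown, so precision at low levels cannot be given.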
